A study of Mus musculus with 4 samples.

Results

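The alpha-arrestins examined here were *Txnip*, *Arrdc1*, *Arrdc2*, *Arrdc3* and *Arrdc4*, measured by RNA-seq in isolated mouse islets at low and high glucose. They are 5 of the 24157 gene symbols and lncRNAs in the deposited table, and all 5 were found by their symbols. The table gives 9 entries for them, of which 7 differ in value, and the entry with the highest mean over the 4 libraries stood for each gene. Islets of wild-type C57bl6 males, 3 months of age, were pooled, kept overnight in 11 mM glucose and then held for 2 h in 2.8 mM glucose. From this pool, 2 libraries were made after 2.8 mM glucose and 2 after 16.8 mM glucose, from total RNA of all cell types of the islet. The series' design text gives 12 h for both concentrations, but in the labels the 2.8 mM samples carry a time of 2 h and the 16.8 mM samples one of 12 h. Under the labels' times, concentration and time cannot be told apart. Because all libraries came from 1 pool of islets, the p-values below measure the spread between aliquots of that pool, not between mice.

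Alpha-arrestins share the arrestin fold with the beta-arrestins that silence G-protein-coupled receptors. Most carry short proline-rich motifs in their tail that bind ubiquitin ligases of the NEDD4 family, and they act as adaptors that bring these ligases to transporters and receptors at the membrane. Thioredoxin-interacting protein, encoded by *Txnip*, also binds reduced thioredoxin and lowers glucose uptake. In beta cells *Txnip* is a well-known glucose-induced gene, driven by the glucose-sensing factors ChREBP and MondoA with their partner MLX through paired E-boxes in its promoter, and prolonged high TXNIP is toxic to these cells. ARRDC4 is the member most like TXNIP and is regarded as a target of the same factors. ARRDC3 is known as an adaptor for beta-adrenergic receptors, ARRDC1 for the budding of small vesicles from the plasma membrane, and ARRDC2 is the least studied of these 5.

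The promoters are shown first, because paired E-boxes are the textbook route by which glucose acts on *Txnip*. The RefSeq promoters (GRCm38.p6, 300 bases each, with 50 bases after the start) were searched on both strands, and all those of the 5 genes were found once, letter for letter, in NCBI build 37, the build of the deposited data. The letters searched were the palindromic E-box CACGTG, its looser form CACGNG, the paired form (CACGNG and, after 5 further bases, CNCGNG), the NF-Y box CCAAT, the forkhead motif GTAAACA and the cAMP response element TGACGTCA. The first is a special case of the second, and the paired form overlaps it as well. The 250 bases before the start are printed 5′ to 3′ on the strand of the gene, with every match on either strand in capitals, for the gene that rose most (*Txnip*), the one most like it (*Arrdc4*) and the one that fell (*Arrdc3*, the first of 3 RefSeq starts). They lie at chr3:96361630-96361879 on the plus strand, chr7:75894125-75894374 on the minus strand and chr13:81022395-81022644 on the plus strand.
Txnip: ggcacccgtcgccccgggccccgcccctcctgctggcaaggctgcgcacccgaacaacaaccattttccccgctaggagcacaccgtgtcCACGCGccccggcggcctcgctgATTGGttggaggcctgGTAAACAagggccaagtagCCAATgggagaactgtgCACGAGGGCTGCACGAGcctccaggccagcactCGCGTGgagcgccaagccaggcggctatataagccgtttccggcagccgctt
Arrdc4: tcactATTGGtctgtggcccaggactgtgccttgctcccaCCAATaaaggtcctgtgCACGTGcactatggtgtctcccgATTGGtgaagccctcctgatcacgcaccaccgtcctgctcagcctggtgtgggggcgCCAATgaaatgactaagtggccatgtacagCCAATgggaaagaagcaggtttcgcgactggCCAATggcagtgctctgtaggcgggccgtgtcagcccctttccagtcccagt
Arrdc3: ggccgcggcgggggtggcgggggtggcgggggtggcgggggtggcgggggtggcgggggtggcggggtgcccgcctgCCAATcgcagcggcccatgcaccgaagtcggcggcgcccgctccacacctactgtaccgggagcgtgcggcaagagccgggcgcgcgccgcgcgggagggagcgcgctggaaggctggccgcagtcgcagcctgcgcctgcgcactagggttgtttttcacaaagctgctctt

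In the *Txnip* promoter the long run of capitals, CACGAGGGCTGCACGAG, is the paired form, at positions -85 to -69 from the start. This pattern was present in 120 of 32851 RefSeq promoters of the same length, or 0.365%. The promoter held 4 matches of the looser E-box, of which 2 make up the paired form, and 0.396% of all promoters held 4 or more. It also held 2 NF-Y boxes and the forkhead motif at -121, which 3.65% of all promoters hold. The *Arrdc4* promoter held 1 palindromic E-box, at -193, a motif found in 7.15% of all promoters, and no paired form. It held 6 NF-Y boxes, a number reached by 26 promoters, or 0.0791%. At the first *Arrdc3* start there was 1 NF-Y box and no E-box of either form, and the other 2 starts of this gene held no E-box either. *Arrdc1* had 2 looser E-boxes, and *Arrdc2* had 1 with 3 NF-Y boxes. Across all promoters, 27.5% held the looser E-box, 37.4% the NF-Y box and 1.79% the cAMP response element, which none of the 5 genes had. A match is a run of letters and says nothing by itself about binding.

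**Figure D1:**
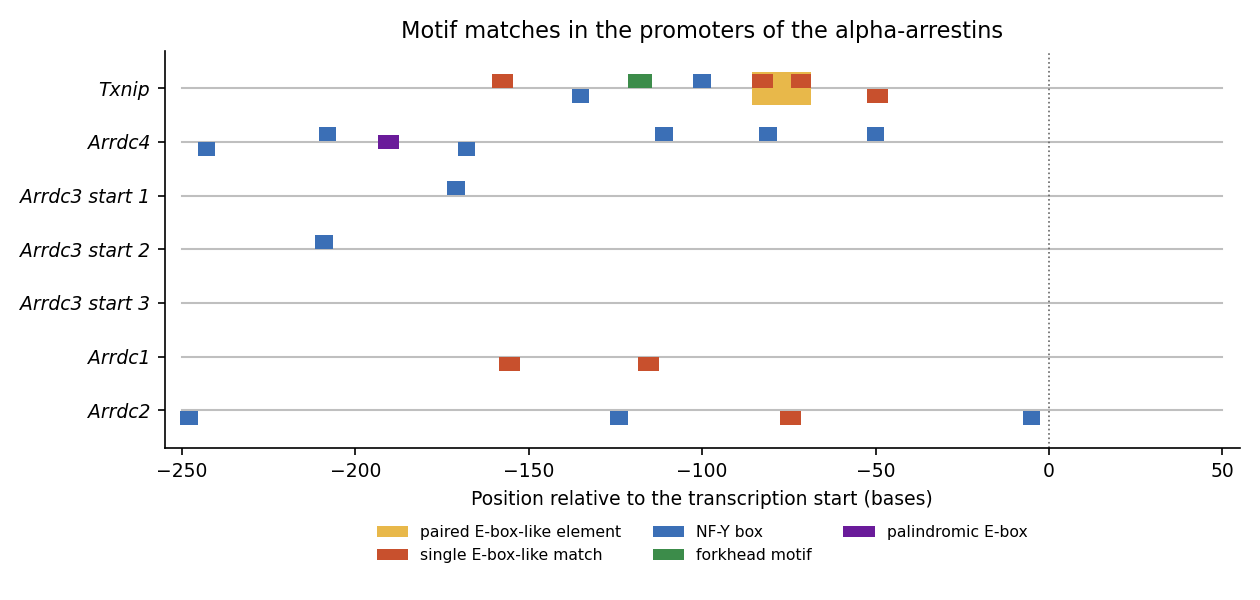
Positions of the motif matches relative to each RefSeq transcription start, in bases, for the 7 promoters of the 5 genes. Boxes above a line lie on the strand of the gene, boxes below it on the other strand, and palindromes on the line. The paired element, at -85 to -69, stands in the *Txnip* promoter alone among the 7, and the 6 NF-Y boxes of *Arrdc4* are spread over its upstream bases.

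The RPKM values are read numbers divided by gene length and by a library total, here called depth. The depth was between 50800000 and 60710000 reads, as recovered from the steps that single reads leave in the RPKM values. The number of reads sequenced cannot be read from them. The study defines RPKM by the length of the exon model, but the deposited values gave whole reads when the length was the genomic span with introns. A gene with long introns therefore has a lower RPKM here than its exons alone would give. Such a gene is also more easily left out by the minimum of 1 RPKM used for the test. Beta cell markers made up most of the marker signal, summing to 22910 and 20560 RPKM at 2.8 mM and 43730 and 40960 RPKM at 16.8 mM. Of these 8 markers 6 rose, beside 10.7% of all transcripts called higher. With quantile normalization or with no minimum RPKM only 2, *Mafa* and *Pdx1*, were called. None of 4 alpha cell markers tested and none of 3 delta and PP cell markers tested passed the test. Acinar markers summed to 31.1 and 84.2 RPKM at 2.8 mM and 72.8 and 144 RPKM at 16.8 mM, higher in replicate 2 of each group. The 5 acinar markers tested had log2 fold changes of 0.75 to 1.20, none past the threshold as deposited, but all 5 were called higher in voom, with a replicate block, and without replicate 2 at 2.8 mM or replicate 1 at 16.8 mM. Of 3 duct markers tested *Krt7* fell (-0.55), while *Krt19* (1.15, adjusted p = 0.0728) and *Muc1* (0.54, adjusted p = 0.234) did not pass. *Krt19* was called higher in voom, and both with a replicate block. Among all transcripts, voom called 13.4% of 19148 higher, and the replicate block called 1232 of 7867 higher. The 1 macrophage and 1 stromal marker tested did not pass. Endothelial markers, all under the minimum, summed to 1.59 and 1.02 RPKM at 2.8 mM and 1.97 and 1.32 RPKM at 16.8 mM. In voom 3 of 4 were called higher, beside 13.4% of all transcripts. *Pecam1* was among them (0.80, voom adjusted p = 0.00138), and *Kdr* was not called (-0.05, voom adjusted p = 0.842). Macrophage markers summed to between 6.92 and 10.01 RPKM and stromal markers to between 1.36 and 2.83 RPKM. Most of the macrophage sum was *Cd68*, at between 6.76 and 9.74 RPKM. *Csf1r* was at most 0.221 RPKM, and *Ptprc* and *Emr1* were under 0.1 RPKM in each library. The part of such cells in the results below was not tested. In bulk islets, fewer cells of a type and less RNA per cell cannot be told apart.

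*Txnip* was the alpha-arrestin with the largest response to glucose. It measured 7.73 and 7.20 RPKM at 2.8 mM glucose and 30.5 and 29.1 RPKM at 16.8 mM, from 1762, 1460, 7212 and 5767 reads. Both libraries at high glucose thus lay far above both at low glucose. The group means were 7.47 ± 0.37 and 29.8 ± 0.96 RPKM (SD, n = 2), a ratio of 3.99, which was 3.94 between the libraries numbered 1 and 4.04 between those numbered 2. Values were tested with limma as log2(RPKM + 0.5) together with the 7867 transcripts whose mean reached 1 RPKM, with Benjamini-Hochberg adjustment at 0.05. *Txnip* rose by 1.93 on this log2 scale (SE 0.12, 95% interval 1.65 to 2.20, limma adjusted p = 1.36e-04). Of all transcripts tested, 33.4% passed this threshold, 10.7% higher and 22.8% lower at 16.8 mM, so that a call alone does not set a gene apart in these data. By size, 34 of the 7867 transcripts had a larger rise. The added 0.5 RPKM understates fold changes of low transcripts, and 5th and 95th percentiles of all log2 fold changes were -0.66 and 0.70. Among the 24157 genes, the mean level of *Txnip* ranked 1356 at 2.8 mM and 316 at 16.8 mM. In the 17 alternative fits it stayed past the threshold, with log2 fold changes between 1.86 and 2.02.

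**Figure D2:**
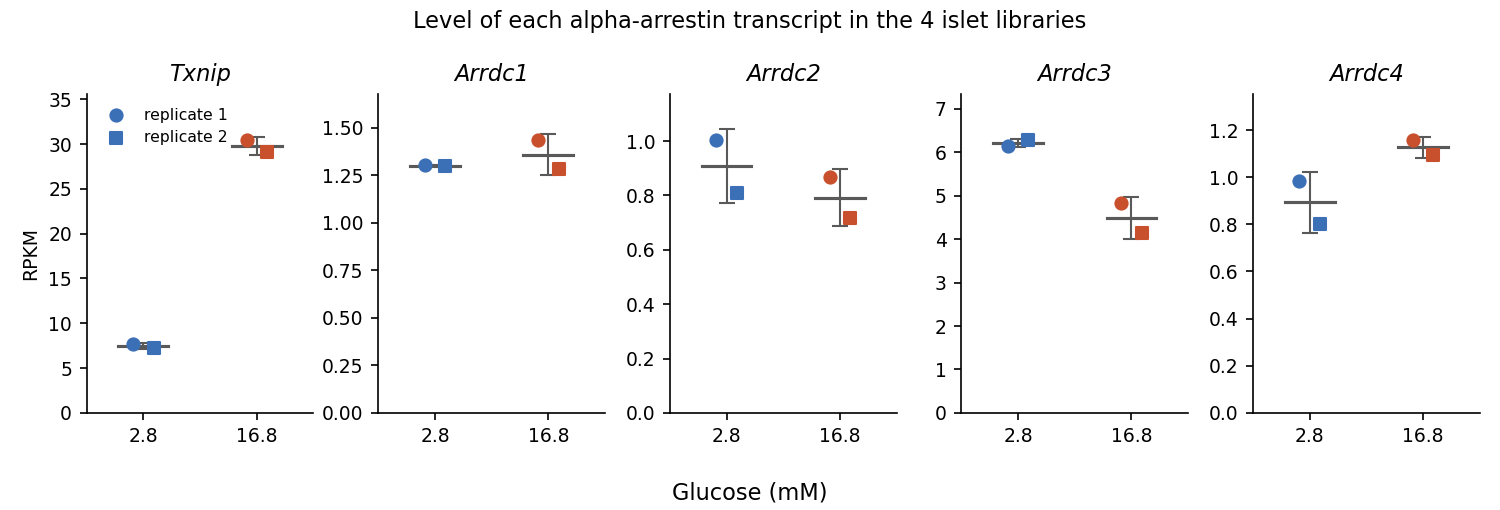
RPKM of each alpha-arrestin in the 4 islet libraries, by glucose concentration in mM, with 1 point per library, the group mean as a bar and the SD as an error bar (n = 2). Each panel has its own axis from 0. *Txnip* goes from 7.73 and 7.20 to 30.5 and 29.1 RPKM, *Arrdc3* lies lower at 16.8 mM, *Arrdc4* slightly higher, and the libraries of *Arrdc1* and *Arrdc2* overlap.

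*Txnip* lies at chr3:96361883-96365780 on the plus strand (NCBI build 37), with 8 exons that fill 71.7% of its span of 3898 bp. A lincRNA of the opposite strand, *Gm15441*, encloses it at chr3:96359688-96370724. This lincRNA measured 2.75 and 2.57 RPKM at 2.8 mM and 10.8 and 10.3 RPKM at 16.8 mM, a pattern close to that of *Txnip* (log2 fold change 1.81, SE 0.10, limma adjusted p = 9e-05). The reads behind its values, 1777, 1472, 7240 and 5791, exceeded those of *Txnip* by only 15, 12, 28 and 24. Between 99.2% and 99.6% of the reads credited to *Gm15441* thus equal in number the reads within the *Txnip* span. The library kit does not mark strand, so the RNA of the pair cannot be told apart, and the antisense value is no separate measurement.

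*Arrdc3* moved the other way. It measured 6.14 and 6.29 RPKM at 2.8 mM glucose and 4.84 and 4.14 RPKM at 16.8 mM, from 4533, 4122, 3706 and 2657 reads. Both high-glucose libraries were below both low-glucose libraries, and the gap was wider for the libraries numbered 2. The means were 6.21 ± 0.10 and 4.49 ± 0.49 RPKM (SD, n = 2), a ratio of 0.723. The log2 fold change was -0.43 (SE 0.11, 95% interval -0.69 to -0.17, limma adjusted p = 0.0244), and 1070 of the 7867 transcripts fell further. Among all transcripts tested, 22.8% were called lower. The call rested on replicate 2 at 16.8 mM, without which the log2 fold change was -0.33 with a limma adjusted p of 0.16. It was also lost when all 28047 transcripts were tested with no minimum RPKM (adjusted p = 0.0863), a fit that called 6.17% of them lower. *Arrdc3* lies at chr13:81022671-81035290 on the plus strand, with 8 exons covering 32.4% of 12620 bp, and the antisense lincRNA 1700023H06Rik, not analysed here, overlaps 1301 bp of it.

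*Arrdc4* was higher at 16.8 mM by a small amount that did not pass the test. Its mean over the 4 libraries, 1.01 RPKM, reached the minimum of 1 RPKM only through the 16.8 mM libraries. Its values were 0.985 and 0.802 RPKM at 2.8 mM and 1.16 and 1.10 RPKM at 16.8 mM, from 705, 510, 861 and 682 reads. The groups did not overlap, as in 70.4% of all transcripts tested. The means were 0.893 ± 0.13 and 1.13 ± 0.044 RPKM (SD, n = 2), a ratio of 1.26, and the log2 fold change was 0.23 (SE 0.09, 95% interval 0.02 to 0.44, limma adjusted p = 0.0909). The call depended on the fit. It was past the threshold in 7 of 16 alternatives, among them all 3 other scalings of the libraries (log2 fold changes of 0.29 to 0.31, adjusted p of 0.0168 to 0.0247, with 47.4%, 47.9% and 46.0% of all transcripts called after quantile normalization, median centring and library totals without the 10 most abundant entries) and voom, limma's method for counts, applied to the reconstructed reads (0.34, adjusted p = 0.0435). Voom called 42.4% of the 19148 transcripts it tested, 13.4% higher and 29.0% lower at 16.8 mM. The 95% intervals of *Arrdc4* and *Txnip* lay apart, at 0.02 to 0.44 against 1.65 to 2.20, although the difference between the 2 genes was not itself tested. *Arrdc4* lies at chr7:75881931-75894127 on the minus strand, with 8 exons over 31.6% of 12197 bp. A second entry for a transcript with an earlier end held 286, 210, 355 and 257 reads in the same library order, between 37.7% and 41.2% of those of the longer entry. That share was much the same in each library.

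*Arrdc1* showed no difference beyond the spread. It measured 1.30 and 1.30 RPKM at 2.8 mM and 1.44 and 1.28 RPKM at 16.8 mM, from 755, 669, 865 and 646 reads, and the high-glucose libraries lay on either side of the low-glucose ones. The log2 fold change was 0.05 (SE 0.08, limma adjusted p = 0.691), with a 95% interval of -0.15 to 0.24, and it turned to -0.01 without replicate 1 at 16.8 mM. The gene lies at chr2:24780872-24790772 on the minus strand, and its exons fill 16.8% of 9901 bp, the smallest share of the 5.

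*Arrdc2* was under the minimum and was not tested with the others. Its values were 1.004 and 0.811 RPKM at 2.8 mM and 0.866 and 0.717 RPKM at 16.8 mM, from 269, 193, 241 and 167 reads, the fewest of the 5 genes. The groups overlapped, with means of 0.907 ± 0.14 and 0.792 ± 0.11 RPKM (SD, n = 2). With no minimum its log2 fold change was -0.12 (95% interval -0.48 to 0.24, limma adjusted p = 0.535), and on reconstructed reads it was -0.19 (95% interval -0.59 to 0.20, voom adjusted p = 0.433). It lies at chr8:73359054-73363619 on the minus strand, with exons over 51.0% of 4566 bp.

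Thus 4 of the 5 genes passed the minimum, and of these 1 rose, 1 fell and 2 did not pass the test, beside 33.4% of all transcripts called. The direction of each call held under every scaling tried. The scalings moved the median of all transcripts, from a log2 fold change of -0.11 as deposited to between -0.04 and -0.03, and relative to the deposited median *Txnip* stood at 2.04, *Arrdc4* at 0.34, *Arrdc1* at 0.16 and *Arrdc3* at -0.32. An exact permutation test of 2 against 2 libraries cannot go below p = 0.333 for a single gene.

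**Figure D3:**
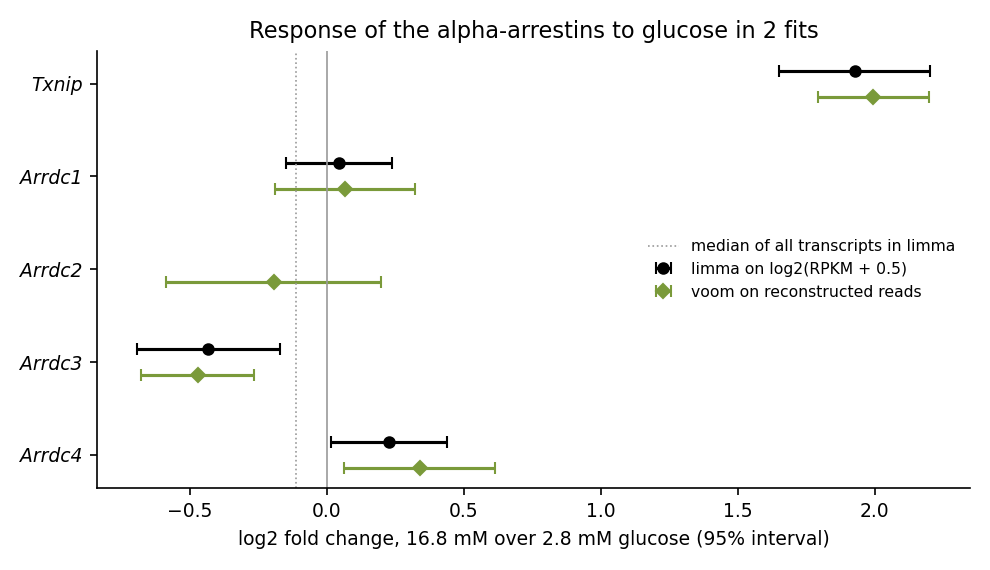
Log2 fold change of each alpha-arrestin, 16.8 mM over 2.8 mM glucose, with 95% intervals, from limma on log2(RPKM + 0.5) and from voom on reconstructed reads. *Txnip* stands near 2 in both, at 1.93 and 2.00, *Arrdc3* lies below 0 in both, and *Arrdc2* was fitted in voom only.

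The order of the members by level changed with glucose and with the length used. By RPKM, per kilobase of genomic span, *Txnip* (7.47) and *Arrdc3* (6.21) led at 2.8 mM, followed by *Arrdc1* (1.30), *Arrdc2* (0.907) and *Arrdc4* (0.893). The last pair did not differ beyond their spread. With the reads divided by the exon length in place of the span and scaled to depth in the same way, *Arrdc3* came first at 2.8 mM with 19.2 ± 0.31, ahead of *Txnip* with 10.4 ± 0.52 and *Arrdc1* with 7.74 ± 0.017 (SD, n = 2). On this exon scale *Arrdc4* (2.84 ± 0.41) was above *Arrdc2* (1.79 ± 0.27), and no values of the pair overlapped. At 16.8 mM *Txnip* led on both scales, with 29.8 RPKM or 41.6 ± 1.3 on the exon scale, where *Arrdc3* had 13.9 ± 1.5 and *Arrdc1* 8.09 ± 0.65. The order at 16.8 mM was then *Arrdc4* before *Arrdc2* on both scales. The exon scale counts reads in introns as if they were exonic, so it is an upper limit for genes with long introns.

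Of the summed RPKM of the 5 genes, *Txnip* took 45.0% and 43.9% in the 2.8 mM libraries and 78.6% and 80.1% in the 16.8 mM libraries. *Arrdc3* fell from 35.8% and 38.3% of this sum to 12.5% and 11.4%. On the exon scale the share of *Txnip* went from 25.3% and 24.3% to 59.6% and 61.6%. On that scale *Arrdc3* held the largest share at 2.8 mM, 44.5% and 47.0%, with *Arrdc1* at 18.2% and 18.7%.

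**Figure D4:**
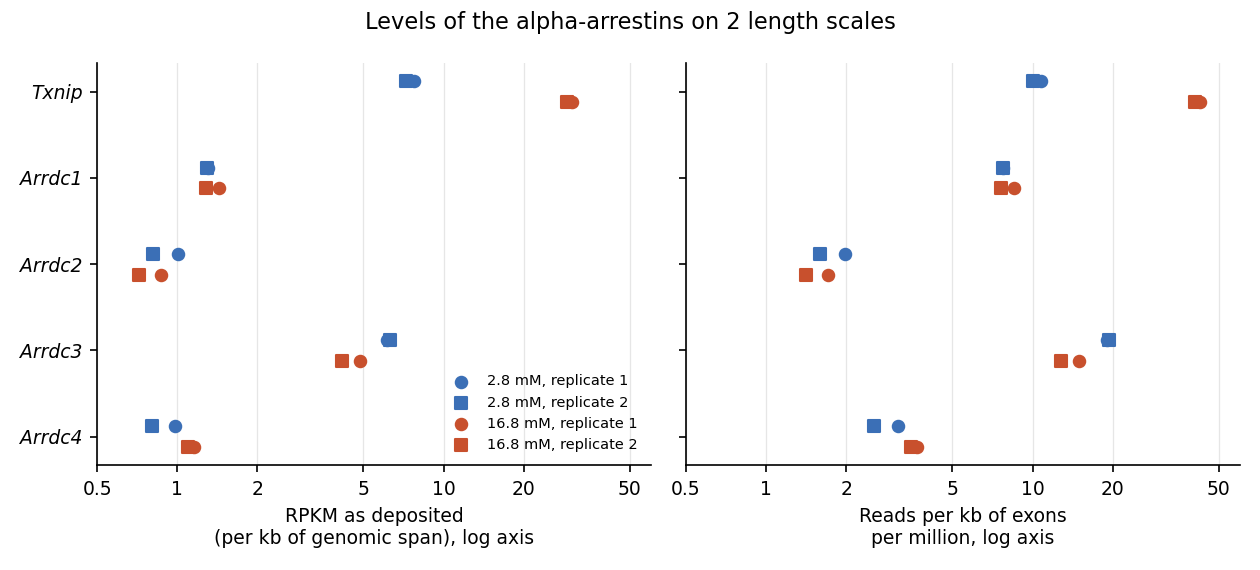
Level of each alpha-arrestin per library, on log axes, as deposited RPKM per kilobase of genomic span and as reads per kilobase of exons scaled to depth. At 2.8 mM *Arrdc3* stands above *Txnip* on the exon scale (19.2 against 10.4) but below it in RPKM (6.21 against 7.47), and at 16.8 mM *Txnip* is the highest on both.

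Among the other arrestins and arrestin-fold genes none of those tested rose at 16.8 mM. Of 8 listed genes 4 were tested, and 2 of them fell, beside 22.8% of all transcripts called lower, with a median log2 fold change of -0.28 against -0.11 for all transcripts. *Arrb2*, encoding a beta-arrestin, went from 2.92 and 2.74 to 1.94 and 1.66 RPKM (log2 fold change -0.54, SE 0.10, limma adjusted p = 0.00697). *Vps26a*, whose product is the arrestin-fold subunit of retromer, fell by 0.29 on the log2 scale (limma adjusted p = 0.0343), a call lost without replicate 1 at 2.8 mM or replicate 2 at 16.8 mM, and with no minimum RPKM neither *Arrb2* nor *Vps26a* passed. Its relatives *Vps26b* and *Dscr3* had -0.27 and -0.24 (adjusted p = 0.0522 and 0.0678) and were called lower under each of the 3 other scalings. *Arrb1*, the visual arrestins *Sag* and *Arr3*, and *Arrdc5* were under 0.1 RPKM in all libraries. *Arrb1* and *Sag* still had the mean of at least 20 reads that voom required. There *Arrb1* was called higher (0.53, voom adjusted p = 0.0151) and *Sag* was not called (-0.01, voom adjusted p = 0.98).

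Thioredoxin and its partners, to which TXNIP is tied, included 3 genes that rose. Of 10 tested, these 3 were called and none fell, with a median log2 fold change of 0.25. That share of 30.0% is near the 33.4% called among all transcripts. *Txn1*, the cytosolic thioredoxin that TXNIP binds, went from 2.72 and 2.52 to 3.82 and 3.796 RPKM (0.47, SE 0.09, limma adjusted p = 0.00937). Sulfiredoxin (*Srxn1*), which repairs overoxidised peroxiredoxins, rose by 0.45 (adjusted p = 0.0418), and the peroxiredoxin of the endoplasmic reticulum, *Prdx4*, by 0.33 (adjusted p = 0.0286). Thioredoxin reductase *Txnrd1* had 0.29 (adjusted p = 0.0774) and the mitochondrial thioredoxin *Txn2* -0.26 (adjusted p = 0.0926). The reductase *Txnrd3*, under the minimum, went from 0.152 and 0.139 to 0.067 and 0.071 RPKM. It was called lower with no minimum (-0.18, limma adjusted p = 0.0373) and in voom (-1.075, voom adjusted p = 1.89e-04). Voom called 5 of the 12 listed genes higher and 3 lower, the other 2 being *Txn2* and *Prdx6*, beside 42.4% of all transcripts called. This list moved with the scaling. With libraries centred on their median 7 of the 10 were called higher and 2 lower, *Txn2* and *Prdx6*, and with quantile normalization 6 were higher and 2 lower, where 47.9% and 47.4% of all transcripts were called. *Txn1* was called in each alternative, but without replicate 1 at 16.8 mM it was the only one of the 10.

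The ligases and the vesicle machinery that alpha-arrestins work with gave few rises. Of 11 NEDD4-family ligases and their activators, 3 were tested and none passed. *Nedd4* measured 2.99 and 2.83 against 3.01 and 2.91 RPKM (0.02, adjusted p = 0.867), the ligase activator *Ndfip1* had 0.04 and *Wwp2* -0.24 (adjusted p = 0.0546). *Wwp2* was called lower under each of the 3 other scalings. In voom on reconstructed reads 4 of the 11 were called lower, beside 29.0% of all transcripts. Of 10 ESCRT genes and partners, whose products bud and cut membranes, 8 were tested, 4 fell and none rose (median -0.22), beside 22.8% of all transcripts called lower. The 4 were *Vps4b* (-0.34), *Pdcd6ip* (-0.31), *Stam2* (-0.31) and *Vps37a* (-0.31), with limma adjusted p between 0.024 and 0.0457, and the same 4 were called under each scaling. *Stam2* reached the minimum only through the 2.8 mM libraries, with a mean of 1.33 RPKM there and 0.979 RPKM at 16.8 mM. None of the 8 was called without replicate 1 at 2.8 mM, without replicate 2 at 16.8 mM or with no minimum RPKM, and only *Stam2* and *Vps4b* were called when either of the other libraries was left out. *Tsg101*, the ESCRT subunit that ARRDC1 recruits, had -0.10 (adjusted p = 0.397).

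Genes of the carbohydrate response, which shares its factors with *Txnip*, did not move together. Of 12 listed 7 were tested, 1 rose and 3 fell, with a median of 0.01, beside 10.7% and 22.8% of all transcripts. *Acly*, which makes cytosolic acetyl-CoA from citrate, rose from 20.9 and 19.9 to 28.8 and 29.0 RPKM (0.49, SE 0.12, limma adjusted p = 0.0201), a call lost without either library at 16.8 mM. *Mlxipl*, which encodes ChREBP, was at 3.16 and 3.71 and then 2.69 and 2.56 RPKM (-0.33, adjusted p = 0.0477), a call that was lost under the 3 other scalings. *Pklr*, encoding the liver-type pyruvate kinase, fell by 0.42 (adjusted p = 0.00704) and ketohexokinase, *Khk*, by 0.36 (adjusted p = 0.0233). Both reached the minimum of 1 RPKM only through the 2.8 mM libraries. Their means were 1.43 and 1.30 RPKM there and 0.938 and 0.902 RPKM at 16.8 mM. With no minimum *Pklr* was called lower (limma adjusted p = 0.0419) and *Khk* was not (limma adjusted p = 0.112). The call of *Khk* was lost without replicate 1 at 2.8 mM or replicate 2 at 16.8 mM, and that of *Mlxipl* was lost on leaving out any library other than replicate 1 at 2.8 mM. *Mlx* had 0.21 (adjusted p = 0.149), and fatty acid synthase, *Fasn*, 0.01 (adjusted p = 0.939). Among the transporters and receptors that alpha-arrestins are known to act on, 2 of 8 were tested. The glucose transporter *Slc2a1* was at 1.55 and 2.11 and then 3.83 and 3.24 RPKM and rose (0.80, SE 0.14, adjusted p = 0.00608). This call was lost with no minimum RPKM (limma adjusted p = 0.0919). *Slc2a2*, the main glucose transporter of mouse beta cells, had 0.40 (adjusted p = 0.0607). It was called higher in voom (0.455, voom adjusted p = 0.00346), but not under the 3 other scalings or with no minimum (limma adjusted p = 0.231). The insulin receptor *Insr*, under the minimum, was at 0.490 and 0.501 and then 0.266 and 0.253 RPKM, and was called lower with no minimum (-0.39, limma adjusted p = 0.0365) and on reconstructed reads (-0.93, voom adjusted p = 3.08e-07). Of the inflammasome genes, which TXNIP has been tied to, only *Pycard* of 5 was tested (-0.13, adjusted p = 0.372), and *Nlrp3* lay under 0.1 RPKM in all libraries. *Il1b*, the cytokine that the inflammasome activates, was at 0.136 and 0.156 and then 0.418 and 0.310 RPKM, called higher in voom (1.32, adjusted p = 5.08e-04) but not with no minimum (adjusted p = 0.0774).

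**Figure D5:**
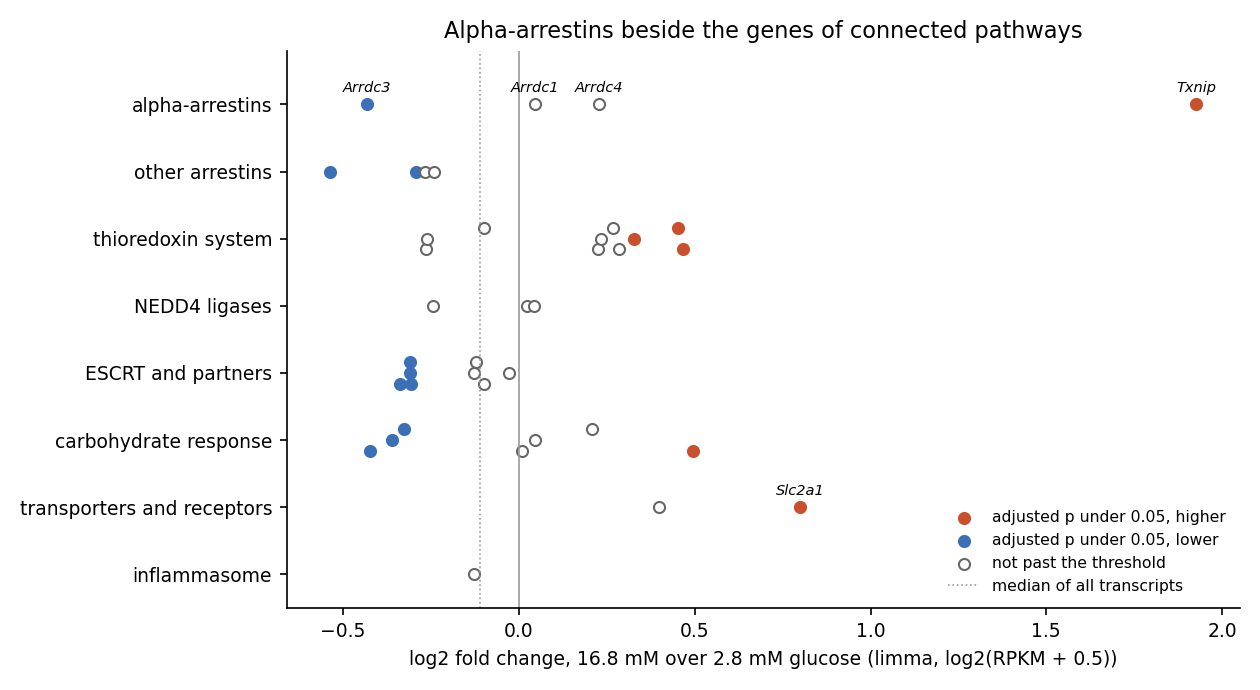
Log2 fold changes, 16.8 mM over 2.8 mM glucose, of the tested alpha-arrestins and of the tested genes of 7 lists, 1 point per gene, filled where the limma adjusted p was under 0.05. *Txnip* (1.93) and *Slc2a1* (0.80) lie farthest to the right, and the called ESCRT genes and arrestins lie to the left of the median of all transcripts (-0.11).

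The paired E-box of the *Txnip* promoter was present in the promoters of 115 genes, of which 41 were tested. Of these 5 rose and 15 fell, which is 48.8% called beside 33.4% of all transcripts. Their median log2 fold change was -0.16 against -0.11 for all genes tested at 1 entry per gene. *Txnip* had the largest value of the 41, and *Pklr*, which also holds the element, had -0.42.

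The genes whose profiles over the 4 libraries were most like those of the members were found among 1554 coding genes with a mean of at least 5 RPKM, by the root mean square difference of centred log2(RPKM + 0.5) values. Beside *Txnip* these were *Fh1* (0.05), an enzyme of the citric acid cycle, the insulin gene *Ins1* (0.08) and the prohormone convertase *Pcsk1* (0.12). *Fh1* measured 2.14 and 1.95 RPKM at 2.8 mM and 9.40 and 9.72 RPKM at 16.8 mM, a ratio of means of 4.67 beside 3.99 for *Txnip*, so the likeness is one of the log2(RPKM + 0.5) values. *Ins1* was at 3113 and 3071 and then 10735 and 10364 RPKM. For *Arrdc3* the nearest were *Fbxw5*, *Clk1* and *Rsrp1* (0.01 to 0.03), for *Arrdc4* *Cox6b1*, *Arpc5* and *Cxx1b*, all within 0.01, and for *Arrdc1* *Kif12*, *Sqle* and *Slc38a2* (0.02 each). The ratios of means of *Cox6b1*, *Arpc5* and *Cxx1b* were 1.188, 1.165 and 1.179, beside 1.262 for *Arrdc4*. Their likeness to *Arrdc4* is thus also one of the log2(RPKM + 0.5) values. These likenesses rest on 4 libraries and describe them.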

How the data were processed

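RNA-seq of pooled mouse islets was analysed from the table the authors deposited, which gives RPKM values for the 4 libraries in 4 columns of sample values, all used, with 33923 entries on NCBI build 37. The submitters' processing notes name STAR, bedtools, DESeq and mm9, and how the islet libraries themselves were counted is not given in the sources used here. The depth of each library and the length behind each entry were recovered from whole-read steps. Between 95.4% and 96.1% of low values were whole within 0.1 read when the length was the genomic span, and all member reads were whole within 0.04.

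Entries with identical values were used once (28047 left). Those whose mean RPKM reached 1 were compared as log2(RPKM + 0.5) with limma 3.58.1 in R 4.3.3, with variance trend and Benjamini-Hochberg adjustment at 0.05. There were 2 libraries a group, and the read counts behind a value bear on its counting error only. Scripts were tested on simulated data. Alternatives were no trend, 3 other scalings, other minimums and added values, the replicate block, all entries or 1 per gene, voom on reconstructed reads with a mean of at least 20, reads per exon length, and leaving out each library.

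The members and all lists were chosen with earlier results of these data known. Named were the members, genes of the lists (the called ones with the largest changes and a few by role), overlapping genes, and for each tested member the 3 most similar genes. Promoters came from RefSeq (GRCm38.p6), positions from GENCODE on NCBI build 37. Proteins were not used here. Other steps used Python 3.11.15, pandas 2.3.3, numpy 2.4.6 and matplotlib 3.10.9.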

Additional observations from a re-analysis of the deposited data

How the results depend on the processing

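The rise of *Txnip* kept its direction and its call under all alternatives (log2 fold change 1.88 to 1.97 when each library was left out). *Arrdc3* kept its direction in all, but its call was lost with no minimum RPKM (-0.43) and without replicate 2 at 16.8 mM, the range over libraries left out being -0.53 to -0.33. *Arrdc4*, not called as deposited, was called after quantile normalization (0.30), median centring (0.31), with library totals without the 10 most abundant entries (0.29), with voom (0.34) and without replicate 1 at 2.8 mM, the range over libraries left out being 0.13 to 0.32. It was dropped by a minimum of 1 RPKM in every library, so no value was obtained there. *Arrdc1* ranged from -0.014 to 0.105 when a library was left out and reversed only without replicate 1 at 16.8 mM, and *Arrdc2*, under the minimum, from -0.22 to -0.02. The number of members called was 2, but 1 with no minimum, 3 under the other scalings, the block and both voom fits, and 1 to 3 when a library was left out. Transcripts called numbered 2628, and 8118 with voom, 10911 with voom and the block, and 1825 to 2579 when a library was left out. Calls made up 33.4% of the 7867 transcripts tested as deposited, 9.13% of 28047 with no minimum and 46.0% to 47.9% under the other scalings. Voom called 42.4% of 19148 transcripts, and 57.0% of them with the block. The share of calls that were higher was 31.9% as deposited and 42.3%, 44.1% and 42.6% under quantile normalization, median centring and totals without the top entries. A replicate block raised the calls to 4067 transcripts (51.7%), *Arrdc4* was called (0.23, adjusted p = 0.0489; 0.33 with voom), and no other member's call changed. Libraries of the same number deviated together across transcripts (correlation 0.31 over 2 pairs), but the labels give them only a number in common. Of 255 counts of called list genes under the alternatives, 81 moved by more than 1.5 times. The cause was not tested for any of these changes. *Arrdc2* rested on 167 to 269 reads a library, the fewest of the 5 genes, and what depth limits was not tested.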
